A study of Mus musculus with 24 samples.

Results

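Broad regions of open chromatin were examined in B16-OVA cells with and without knockdown of Fto. The ATAC-seq peaks of 6 libraries were merged wherever they overlapped by 1 bp or more, and a broad region was a merged autosomal region of at least 1000 bp that held a peak in each of the 6 libraries. There were 1614 such regions, 1.63% of the 99113 merged regions and 3.10% of the 52109 autosomal regions with a peak in all 6 libraries. The other 50495 of those autosomal regions were under 1000 bp and are called the narrower regions. The regions were thus chosen by their width, chromosome and presence in the 6 peak lists, so these properties, and the peak strengths from the same lists, are given as a description, without a test. The difference between shFto and shNC libraries took no part in the choice.

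B16-OVA is a mouse melanoma line (strain background C57BL/6) that carries the model antigen ovalbumin. FTO is a demethylase that removes N6-methyladenosine (m6A), a mark on messenger RNA. One group carried a hairpin against Fto (shFto), which the labels of these samples do not number further, and the other a control hairpin (shNC). Both were grown under 5 µg/mL puromycin, and each had 3 ATAC-seq and 3 RNA-seq libraries. Nothing in the labels ties the libraries of a group to separate cultures, so p-values measure only how these libraries vary, and that variation may be technical. In bulk cells, fewer cells with a transcript and less of it per cell cannot be told apart.

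The 6 RNA libraries held 11152404 to 19665589 counts. Levels are given in CPM, counts scaled to the same TMM-adjusted library total. Fto had 31.7, 33.5 and 28.3 CPM in shFto cells, against 107, 108 and 91.8 CPM in shNC cells, and fell by 1.72 ± 0.10 on the log2 scale (SE, adjusted p = 1.6e-10). All 3 shFto libraries lay below all 3 shNC libraries. Scaled to library totals alone, the summed CPM of 11 melanocyte markers was 18687 to 19705 in shFto libraries and 14702 to 15320 in shNC libraries, and the T cell genes Cd3e, Cd3d, Cd3g, Cd8a and Ptprc had 0 counts in all of them. All 9 T cell markers together summed to 6.10 to 7.17 CPM in shFto libraries and 4.08 to 5.44 CPM in shNC libraries. Among the markers of other cell types, the 5 fibroblast markers summed to 4.22 to 5.67 CPM in shFto libraries and 9.42 to 11.4 CPM in shNC libraries. No melanocyte marker of that list had its start in a broad region. The number of peaks was 70508, 72055 and 67427 in the shFto libraries and 81944, 77226 and 74551 in the shNC libraries. The read depth of the ATAC-seq libraries is unknown, since the peak lists give none.

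ATAC-seq marks DNA that a transposase can reach, such as promoters and enhancers from which nucleosomes have been displaced. A peak wider than a single nucleosome-free gap usually joins several neighbouring accessible stretches, as at a promoter with several start sites or with transcription leaving in both directions. In mammals most promoters of housekeeping genes lie in CpG islands, stretches rich in CG dinucleotides that tend to be accessible in many cell types.

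Most broad regions held a gene start. Of the 1614, 1147 (71.1%) held the annotated start of a coding or long noncoding gene, against 9229 of the 50495 narrower regions (18.3%). A further 265 (16.4%) lay inside a coding gene and away from any start, against 46.0% of the narrower regions. Another 29 (1.80%) lay inside a long noncoding gene, and 173 (10.7%) lay between genes, against 29.4% of the narrower regions. The 467 broad regions without a start were a median of 10507 bp from the nearest one, 94 of them within 1 kb and 56 over 50 kb away. Regions are not replicates of a condition, so these shares were not tested, nor was the part of region width in them.

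The promoters in them can be read directly. The following are the 300-base RefSeq promoters (250 bases before the start to 50 after it, build GRCm38.p6, which is mm10) of 8 genes whose starts lie in broad regions. They were chosen after the values were seen, because the results below turn on them. Mdga2 lies in the widest region with a gene start and Ccdc107 in the region with the strongest peaks. Smad9 and Smad6 are among the largest RNA rises, and Egln1 fell. Tmem167 and Xrcc4 share a region and are read in opposite directions, and Rpl10a holds several rarer motifs. Each is written 5′ to 3′ on the strand of its gene. Capitals mark matches, on either strand, to the 10 motifs listed after the sequences.
Mdga2, chr12:67222500-67222799, minus strand: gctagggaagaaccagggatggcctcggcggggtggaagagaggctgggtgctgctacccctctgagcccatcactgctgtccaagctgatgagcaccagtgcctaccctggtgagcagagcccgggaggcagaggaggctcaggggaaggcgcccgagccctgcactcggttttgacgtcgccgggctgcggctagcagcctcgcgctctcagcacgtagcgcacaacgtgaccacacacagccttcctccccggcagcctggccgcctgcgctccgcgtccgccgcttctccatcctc
Ccdc107, chr4:43493115-43493414, plus strand: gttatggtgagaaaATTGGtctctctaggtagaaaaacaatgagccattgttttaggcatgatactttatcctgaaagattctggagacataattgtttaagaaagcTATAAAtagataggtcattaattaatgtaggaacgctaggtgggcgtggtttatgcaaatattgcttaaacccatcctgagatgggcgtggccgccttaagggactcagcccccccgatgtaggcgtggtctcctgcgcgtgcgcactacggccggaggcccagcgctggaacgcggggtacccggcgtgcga
Smad9, chr3:54755332-54755631, plus strand: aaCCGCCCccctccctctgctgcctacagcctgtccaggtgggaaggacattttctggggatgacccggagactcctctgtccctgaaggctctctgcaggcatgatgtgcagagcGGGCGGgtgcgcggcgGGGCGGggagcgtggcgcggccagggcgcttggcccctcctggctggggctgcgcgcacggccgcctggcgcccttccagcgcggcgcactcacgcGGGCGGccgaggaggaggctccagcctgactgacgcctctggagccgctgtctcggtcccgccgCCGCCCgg
Smad6, chr9:64022010-64022309, minus strand: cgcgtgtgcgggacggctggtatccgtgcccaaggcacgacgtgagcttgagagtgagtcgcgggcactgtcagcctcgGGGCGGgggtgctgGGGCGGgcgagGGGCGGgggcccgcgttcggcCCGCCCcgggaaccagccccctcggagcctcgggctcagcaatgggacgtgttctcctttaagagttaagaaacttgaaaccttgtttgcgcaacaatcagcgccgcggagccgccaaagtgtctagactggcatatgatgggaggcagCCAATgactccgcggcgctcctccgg
Egln1, chr8:124949205-124949504, minus strand: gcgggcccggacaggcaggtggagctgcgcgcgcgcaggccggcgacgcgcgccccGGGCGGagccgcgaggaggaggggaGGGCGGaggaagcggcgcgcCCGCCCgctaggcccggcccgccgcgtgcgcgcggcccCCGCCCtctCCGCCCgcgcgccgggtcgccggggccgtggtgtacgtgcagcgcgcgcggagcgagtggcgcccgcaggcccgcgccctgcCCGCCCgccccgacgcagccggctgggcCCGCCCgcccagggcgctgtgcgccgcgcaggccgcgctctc
Tmem167, chr13:90089417-90089716, plus strand: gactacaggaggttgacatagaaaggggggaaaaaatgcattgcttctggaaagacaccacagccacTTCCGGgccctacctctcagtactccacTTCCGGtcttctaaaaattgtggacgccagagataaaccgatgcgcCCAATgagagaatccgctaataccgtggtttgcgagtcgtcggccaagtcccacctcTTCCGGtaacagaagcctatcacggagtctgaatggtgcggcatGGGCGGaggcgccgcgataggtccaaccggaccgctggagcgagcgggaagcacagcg
Xrcc4, chr13:90089559-90089858, minus strand: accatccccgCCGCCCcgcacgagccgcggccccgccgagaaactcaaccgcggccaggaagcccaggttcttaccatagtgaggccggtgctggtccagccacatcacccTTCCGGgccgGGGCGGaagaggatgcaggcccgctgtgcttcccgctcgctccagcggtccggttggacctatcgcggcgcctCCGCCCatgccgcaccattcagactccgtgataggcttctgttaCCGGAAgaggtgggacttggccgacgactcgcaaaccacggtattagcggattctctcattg
Rpl10a, chr17:28328315-28328614, plus strand: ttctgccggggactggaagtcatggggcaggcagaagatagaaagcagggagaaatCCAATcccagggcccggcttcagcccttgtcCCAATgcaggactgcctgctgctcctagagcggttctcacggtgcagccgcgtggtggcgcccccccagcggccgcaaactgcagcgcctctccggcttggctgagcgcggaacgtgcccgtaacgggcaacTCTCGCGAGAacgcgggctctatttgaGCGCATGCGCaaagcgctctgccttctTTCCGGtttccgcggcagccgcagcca

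The motifs set in capitals wherever they occurred were the GC box (GGGCGG, bound by SP factors), the CCAAT box (bound by NF-Y), the ETS core (CCGGAA), the NRF1 motif (GCGCATGCGC), the palindrome TCTCGCGAGA (bound by BANP), the TATA box (TATAAA), the AP-1 motif (TGANTCA), the E-box CACGTG, the cyclic AMP response element (TGACGTCA) and the YY1 motif (AAGATGGC). The last 4 had no match in the 8 promoters. These are short strings and a match is a description, not a bound site. Overlapping motifs were counted separately. Egln1 was the most GC-rich of the 8 printed promoters, at 86.0% GC with 60 CpG. Smad9 had 73.7% GC and 31 CpG, and Smad6 66.3% GC and 31 CpG. All 3 held several GC boxes. The Mdga2 promoter had 67.7% GC and 22 CpG and no match to any of these motifs. Ccdc107 was the least GC-rich of the 8, at 49.3% GC and 17 CpG, and held a CCAAT box and a TATA box. The Tmem167 and Xrcc4 windows overlap each other on opposite strands and share an ETS core and a GC box. Rpl10a held 2 CCAAT boxes upstream of an NRF1 motif, the TCTCGCGAGA palindrome and an ETS core.

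CpG-rich promoters were the rule in the set. Of the RefSeq promoters, 1209 lay wholly inside a broad region, with a median of 68% GC, 29 CpG and a ratio of observed to expected CpG of 0.893. The 6240 promoters inside narrower regions had medians of 64% GC, 24 CpG and a ratio of 0.823, and all 31223 autosomal promoters of the table had 53% GC, 7 CpG and a ratio of 0.390. The table has no promoter on chromosome 18, which held 59 broad regions, and lacks those of some other coding genes. The ratio was 0.6 or more in 91.0% of the broad-region promoters, 83.2% of those in narrower regions and 36.5% of all. These are counts over promoters of 1 genome, with no replicate, and were not tested.

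The motif content did not follow CpG content alone. GC boxes were found in 78.3% of broad-region promoters, 73.4% of narrower-region promoters and 36.1% of all promoters. The CCAAT box was less frequent in broad-region promoters (32.2%) than in narrower-region promoters (43.6%) or all promoters (37.2%). The ETS core was found in 26.6%, 34.6% and 15.1% of the same 3 sets. The full cyclic AMP response element was found in 1.99% of broad-region promoters, close to the 1.84% of all promoters and below the 4.25% of narrower-region promoters. The NRF1 motif was found in 3.06%, 2.29% and 0.967% of the 3 sets, and the TCTCGCGAGA palindrome in 1.90%, 1.38% and 0.464%. Both shares were highest in broad-region promoters, where they rest on 37 and 23 promoters. A gene can have several overlapping promoters in the RefSeq table, so 1 motif copy can be counted more than once, as for the palindrome at Ube2d3. The YY1 motif was found in 5.38%, 5.26% and 2.75% of the 3 sets. The E-box CACGTG was found in 10.1%, 11.2% and 7.16%, while the related string CATGTG, part of the motif read by the melanocyte factor MITF, was found in 5.54%, 6.55% and 14.1%. AP-1 motifs (2.81%, 4.23% and 7.83%) and TATA boxes (4.30%, 4.28% and 13.6%) were less frequent in the promoters of both region sets than in all promoters. The plot of sequence features shows these shares side by side.

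**Figure D1:**
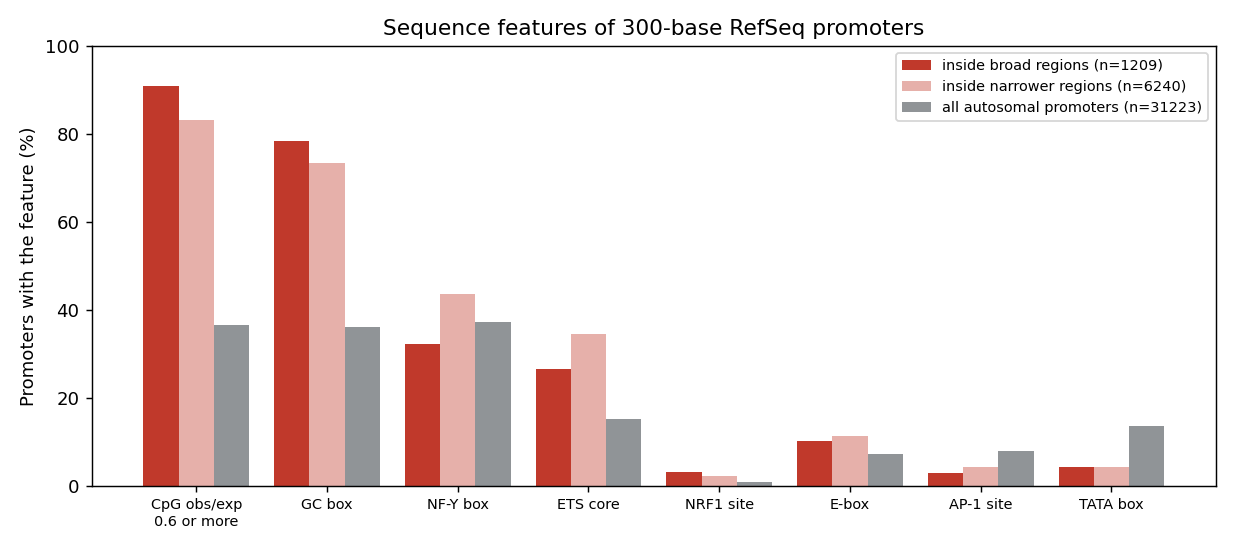
Share of 300-base RefSeq promoters (percent, vertical axis) with each sequence feature, for promoters inside broad regions (n = 1209), inside narrower regions (n = 6240) and all autosomal promoters of the table (n = 31223). The table has none on chromosome 18. The bars for CpG and GC box are highest for broad regions, and the bars for the NF-Y (CCAAT) box and ETS core are lower for broad than for narrower regions.

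Starts were placed off centre. In the 832 broad regions with 1 coding start of known strand, the region reached a median of 489 bp upstream and 659.5 bp downstream of the start, and in 61.1% of them the downstream side was the longer. Some regions held more than 1 promoter. Of the 1102 broad regions with a coding start, 140 (12.7%) held starts of at least 2 coding genes, against 8.51% of narrower regions with a coding start. In 98 of them (8.89%) the genes ran away from each other, against 6.52% of narrower regions, with a median of 237.5 bp between the starts. Broad regions were chosen for their width (median 1131 bp, against 426 bp in narrower regions). A wider region has more room for a second start, and the part of width in these shares was not tested. In all, 1429 genes started in a broad region, 1240 coding and 189 long noncoding, and 3 of these had starts in more than 1 broad region. Of the 919 autosomal microRNA hairpins in the RefSeq table, 13 lay in a broad region, among them that of let-7i (Mirlet7i, 1055 bp region), and 46 lay in a narrower one.

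Fold enrichment did not rise steadily with breadth. The median width was 1131 bp (quartiles 1055 and 1244 bp), 78 regions reached 1500 bp, and the 2 widest had 2297 and 2252 bp. The share of regions with a gene start was 8.09% from 250 to under 500 bp, 31.5% from 500 to under 750 bp, 56.8% from 750 to under 1000 bp, 68.8% from 1000 to under 1250 bp, 79.1% from 1250 to under 1500 bp and 74.4% at 1500 bp or more. The median fold enrichment, the peak caller's ratio of signal over local background at the strongest peak of each region, was 10.3, 15.8, 16.2, 14.6, 12.7 and 10.9 in the same 6 classes. It was highest just below the width limit and lower in each wider class. At the limit itself, the 7 regions of exactly 1000 bp had medians from 4.54 to 25.5 and the 8 regions of 999 bp from 6.37 to 22.1.

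**Figure D2:**
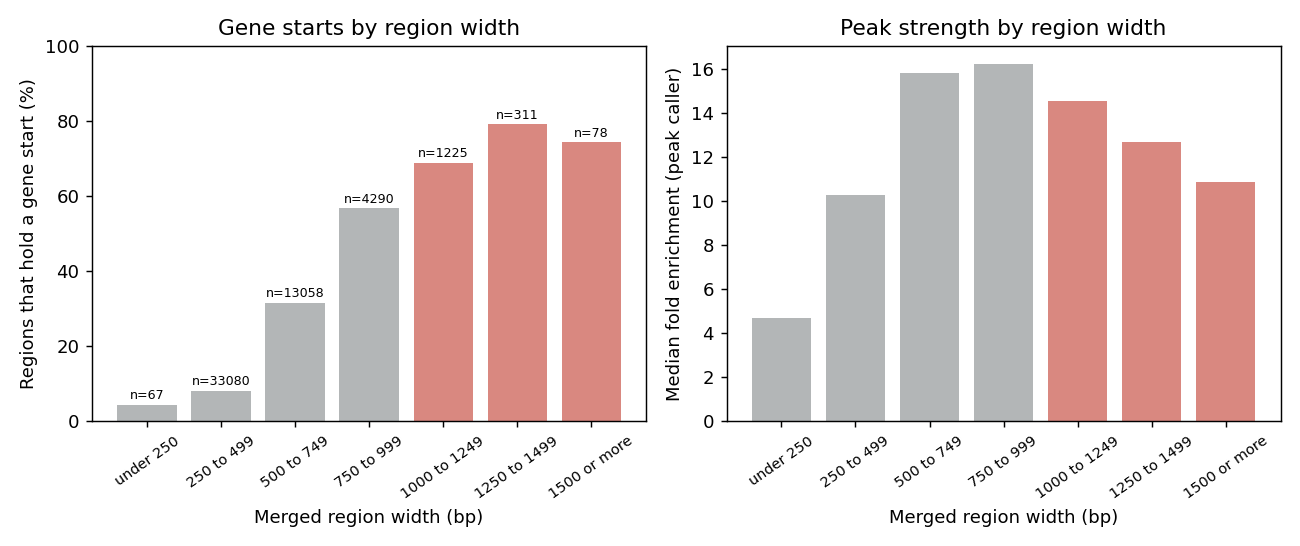
Autosomal regions with a peak in all 6 libraries by merged width (bp, horizontal axis), with broad regions in red. The left bars give the percent that hold a gene start, which is 8.09% at 250 to 499 bp and 79.1% at 1250 to 1499 bp, and the right bars give the median fold enrichment, which peaks at 16.2 in the 750 to 999 bp class.

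Within each library the broad regions were stronger than the typical peak without being the strongest, and the narrower regions open in all 6 libraries lay in between. The fold enrichments and q-values are the authors' own, one per peak, and were read only within a library's list. A region took the highest value among its peaks in that library, while the medians over all peaks count each peak singly. The median fold enrichment of the broad regions was 14.0, 13.7 and 13.8 in the shFto libraries and 14.5, 14.2 and 14.0 in the shNC libraries. It was 11.4 to 12.9 in the narrower regions and 8.88 to 9.53 over all peaks of a library. The median −log10 q of the broad regions was 87.9, 72.5 and 81.1 in the shFto libraries and 108, 96.1 and 80.4 in the shNC libraries, against 28.4 to 42.0 in the narrower regions and 18.3 to 21.5 over all peaks. A broad region stood at a median percentile of 68.9 to 72.1 by fold enrichment and 82.2 to 84.8 by −log10 q within its list, and a narrower region at 60.1 to 67.1 by fold enrichment. The highest fold enrichment of a broad region was 28.0 to 30.1, against 45.2 to 46.0 in the lists as a whole. In each list, 0 of the 100 peaks with the highest fold enrichment and 1 to 4 of the 100 with the highest −log10 q lay in a broad region.

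Many of the broad regions were a single wide peak in some libraries and several peaks in others. In 719 regions (44.5%) every library had exactly 1 peak. In 287 of all broad regions (17.8%), whole or split, the longest peak reached 1000 bp in all 6 libraries. In 868 (53.8%) some libraries had the region whole and others had it split, and in 27 it was split in all 6. In 277 (17.2%) no library had a peak of 1000 bp, so the width came from joining peaks of different libraries, and in 402 (24.9%) a peak of 1000 bp was called in 1 library alone. Peaks of 1000 bp or more numbered 749, 586 and 697 in the shFto libraries and 897, 825 and 622 in the shNC libraries.

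The widest region, chr15:85669016-85671312, lay between genes, 32461 bp from the long noncoding gene Lncppara and 64464 bp from Ppara, a nuclear receptor of fatty acid metabolism. Its fold enrichment was 7.54, 7.44 and 7.54 in the shFto libraries and 7.30, 8.16 and 8.31 in the shNC libraries, below the median peak of each list. Peaks covered 1560, 1677 and 1789 bp of it in the shFto libraries and 2102, 1846 and 1839 bp in the shNC libraries. The second widest, chr12:67220630-67222881 (2252 bp), held the start of Mdga2, a membrane protein of neural synapses, and lay mostly downstream of it. Peaks covered 1891, 1583 and 1910 bp of it in shFto and 2038, 2003 and 2080 bp in shNC libraries. In both of these regions the covered length was shorter in every shFto library than in every shNC library. Mdga2 RNA had 5.96, 7.06 and 5.98 CPM in shFto cells, against 11.9, 9.35 and 10.5 CPM in shNC cells, and fell by 0.75 ± 0.18 on the log2 scale (SE, adjusted p = 0.0030). The other 6 of the 8 widest regions were 1812 to 1953 bp. They held the starts of Fbxl17, Ppp6r2, Mb21d2, Ube2d3 with 4930539J05Rik and Hnrnpk with Rmi1, and 1 lay 5359 bp from Arl4d. These genes with a start there did not pass the test, and Hnrnpk, an RNA-binding protein, had 777, 768 and 715 CPM in shFto cells against 756, 809 and 770 CPM in shNC cells.

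The strongest broad regions, ranked by the mean within-list percentile of fold enrichment, were narrower, 1001 to 1232 bp. First was chr4:43492712-43493724 at Ccdc107, with fold enrichments of 28.3, 28.1 and 28.0 in the shFto libraries and 29.3, 30.1 and 29.6 in the shNC libraries. Ccdc107 RNA had 31.3, 38.8 and 38.6 CPM in shFto cells, against 46.6, 47.2 and 52.2 CPM in shNC cells, and fell by 0.43 ± 0.11 on the log2 scale (SE, adjusted p = 0.0044). Without shFto replicate 1 its change was -0.33 and the adjusted p 0.055. The next lay inside Kidins220, 58826 bp from that gene's start. The region chr13:90088998-90090015 held the start of Tmem167, which rose by 0.58 ± 0.10 on the log2 scale (SE, adjusted p = 0.00029), and that of Xrcc4, a DNA ligase partner in end joining. Xrcc4 had 15.6, 15.6 and 13.0 CPM in shFto cells against 17.1, 15.3 and 16.1 CPM in shNC cells. At chr10:57485874-57486874, Hsf2, a heat shock factor, rose by 0.37 ± 0.13 (SE, adjusted p = 0.037), a call lost without shFto replicate 1 or 2 or shNC replicate 2 or 3 (adjusted p 0.074 to 0.16). B3galnt2, Mcu (the mitochondrial calcium channel) and Zfp384 did not pass the test. Ttc39b rose by 0.32 ± 0.10 (SE, adjusted p = 0.020), with the call lost without shFto replicate 1 or 2 or shNC replicate 1 or 3 (adjusted p 0.067 to 0.087). Its region was covered over 919, 758 and 712 bp in shFto and 949, 1043 and 996 bp in shNC libraries. It was shorter in every shFto library while the RNA was higher.

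The share of broad-region length under peaks did not differ beyond the spread between libraries. It was 87.2%, 83.2% and 85.6% in the shFto libraries, against 90.0%, 88.4% and 84.2% in the shNC libraries, a difference of -2.19 percentage points (85.3 ± 1.99% and 87.5 ± 2.99%, SD, n = 3 each, exact two-sided permutation p = 0.4). The groups overlapped. In the narrower regions the means were 84.2 ± 0.858% and 87.3 ± 2.24% (SD, n = 3 each, exact permutation p = 0.2). Peaks per broad region averaged 1.31 ± 0.0358 in shFto and 1.26 ± 0.0438 in shNC libraries (SD, n = 3 each, exact permutation p = 0.3). Broad regions took 3.03 ± 0.0851% of the peaks of an shFto library and 2.61 ± 0.211% of those of an shNC library (SD, n = 3 each, exact permutation p = 0.1, the smallest that 3 against 3 can give). The total number of peaks, 69997 ± 2356 in shFto and 77907 ± 3743 in shNC libraries, was lower in all 3 shFto libraries (SD, n = 3 each, exact permutation p = 0.1). The part of that difference in the share was not tested.

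**Figure D3:**
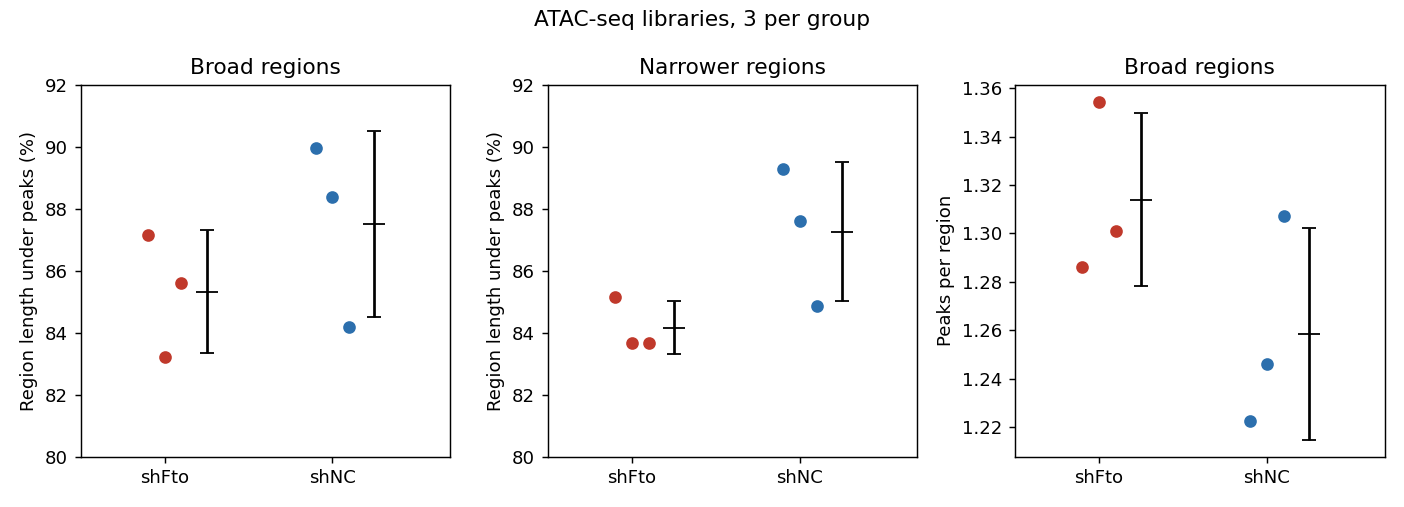
Percent of region length under peaks in broad regions (left) and narrower regions (middle) and peaks per broad region (right), 1 point per ATAC-seq library, with the mean and SD as bars. The shFto points, left in each panel, overlap the shNC points in all 3 panels.

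Single regions differed in covered length in both directions, at about the rate of all open regions. The covered length was longer in every shFto library than in every shNC library in 58 broad regions (3.59%), against 3.47% of all autosomal regions open in the 6 libraries. It was shorter in 180 (11.2%), against 14.1%. The median difference was -14 bp over the broad regions and -9.33 bp over all. Such non-overlap is a count and not an adjusted test.

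Among the regions without overlap between the groups, those with the largest differences include several away from promoters. They were chosen after their values were seen. A region 24702 bp from Mreg, which encodes a melanosome transport protein, was covered over 645, 832 and 633 bp in the shFto libraries and 1302, 1088 and 1424 bp in the shNC libraries. Mreg RNA averaged 69.5 and 74.9 CPM in the 2 groups and did not pass the test (adjusted p = 0.39). A region 26544 bp from Cdh2, the gene of N-cadherin, was covered over 283, 858 and 427 bp in the shFto libraries and 938, 1153 and 1092 bp in the shNC libraries. Cdh2 RNA had 112, 102 and 110 CPM in shFto cells, against 164, 171 and 142 CPM in shNC cells, and fell by 0.56 ± 0.08 on the log2 scale (SE, adjusted p = 6.3e-05). Here region and RNA were both lower in all 3 shFto libraries. Another region, 44429 bp from Zfp236, was covered over 552, 460 and 501 bp in shFto and 1118, 998 and 891 bp in shNC libraries, with Zfp236 RNA at a log2 change of -0.09 (adjusted p = 0.54).

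Of the regions that were longer in shFto libraries, the 1534 bp region at Hist1h1d (H1f3), the gene of a linker histone, was covered over 1449, 1294 and 1460 bp in shFto and 1104, 1024 and 977 bp in shNC libraries. Its RNA went the other way, as given below. Sh3bp5l and Zfp672, genes that run away from each other, share a region. It was covered over 1238, 1083 and 1135 bp in shFto and 829, 885 and 609 bp in shNC libraries. Sh3bp5l RNA had a log2 change of -0.03 (adjusted p = 0.86). The 2 others of the 4 largest held only predicted long noncoding genes (Gm32817 and Gm53058, and Gm36170 and Gm40513).

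**Figure D4:**
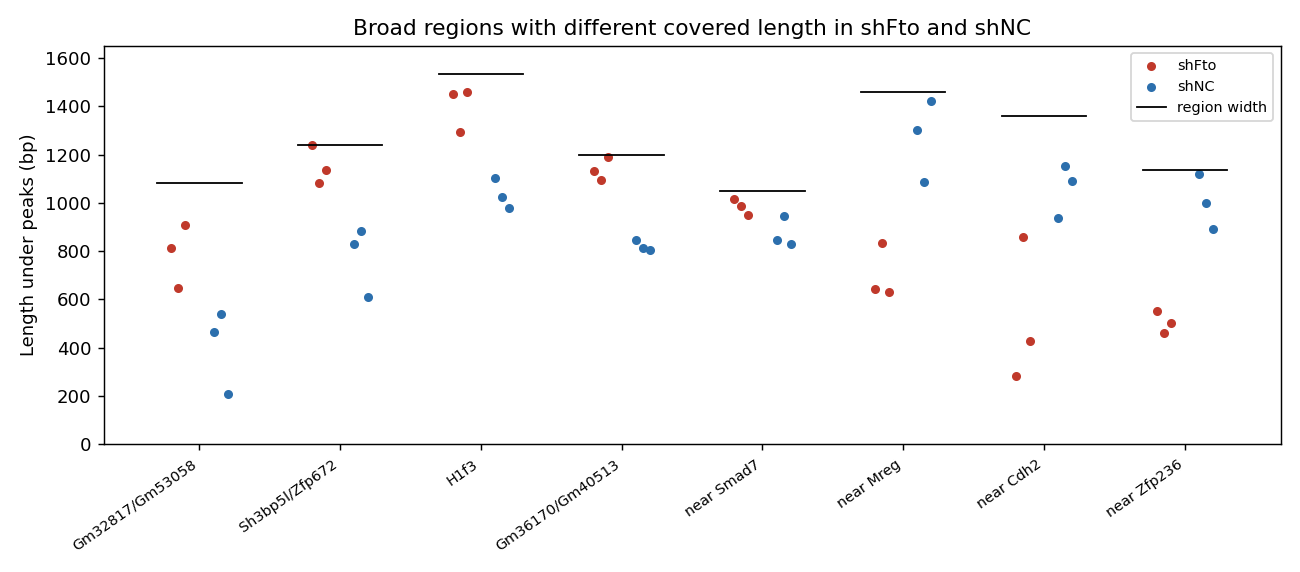
Length under peaks (bp) in each ATAC-seq library for the 4 broad regions with the largest gain, the region near Smad7, and 3 of those with the largest loss, with shFto points left of shNC points and the region's width as a black line. In all 8 regions the groups do not overlap, which the choice of regions required for all but the one near Smad7. That one was picked with its values known, and its closest libraries differ little.

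Most genes at broad regions were detected as RNA. Of the 1301 genes in the RNA table with a start in a broad region, 1257 (96.6%) had enough counts to be tested, against 91.1% of genes at narrower regions and 48.0% of the table. Their median level was 54.7 CPM in shFto cells and 54.3 CPM in shNC cells, against 35.8 and 35.3 CPM over all tested genes. CPM is not corrected for transcript length, so no order of levels between genes is read from it. Mean levels ran from 0.617 to 3294 CPM (quartiles 23.7 and 126 CPM). The genes took 15.5%, 15.6% and 15.4% of all counts in shFto libraries and 15.3%, 15.4% and 14.8% in shNC libraries (exact permutation p = 0.2, n = 3 each).

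The RNA of these genes changed about as often as that of other genes, and in both directions. With an adjusted p under 0.05, 227 of the 1257 were higher in shFto cells (18.1%, against 15.9% of all 11718 tested genes) and 228 were lower (18.1%, against 16.9%). In either direction, 32.8% of all tested genes passed. Without shFto replicate 1, 140 were higher and 145 lower. Scaling by library totals instead of TMM, which shifts the median of all genes by 0.05 on the log2 scale, gave 295 higher and 180 lower, and moved the split of all genes in the same way (60.0% of calls higher, against 48.5%). The median log2 fold change was 0.01 at broad regions and -0.00 over all genes.

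Large changes were few. Called changes of at least 2-fold numbered 18 (1.43%; 7 higher and 11 lower), against 3.25% of all tested genes and 2.21% of genes at narrower regions. The share moved with RNA level. Among genes of 10 to under 50 CPM it was 1.59% at broad regions and 1.61% over all genes, and at 50 CPM or more it was 0.303% and 0.656%. Below 10 CPM it was 5.73% and 10.2%. Genes below 10 CPM were 157 of the 1257 tested genes at broad regions and 2761 of all 11718.

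Length under peaks and RNA call were set side by side for the broad regions with a tested gene, a region with several genes entering each set that it has a gene for. In the 222 with a higher gene the covered length differed by a median of 0.5 bp, in the 224 with a lower gene by -17.3 bp and in the 730 with no call by -5.5 bp (shFto minus shNC). Regions longer in every shFto library made up 4.50%, 5.36% and 3.15% of the 3 sets, and shorter ones 5.41%, 10.7% and 8.49%. These medians are small beside the widths, and no test over regions was made.

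SMAD genes of the bone morphogenetic protein (BMP) pathway were among the largest rises. BMP receptors phosphorylate SMAD1, SMAD5 and SMAD9, while SMAD6 and SMAD7 inhibit the pathway. Smad9 had 29.6, 24.1 and 32.6 CPM in shFto cells, against 6.53, 7.96 and 7.16 CPM in shNC cells, and rose by 1.99 ± 0.15 on the log2 scale (SE, adjusted p = 6.8e-09). Its region, chr3:54755146-54756411, was covered over 960, 954 and 883 bp in shFto and 1004, 1082 and 1004 bp in shNC libraries, shorter in all 3 shFto libraries while the RNA was higher. Smad6 had 26.9, 26.2 and 40.0 CPM in shFto cells, against 9.95, 11.0 and 9.90 CPM in shNC cells, and rose by 1.60 ± 0.16 on the log2 scale (SE, adjusted p = 4.4e-07). Its region, chr9:64021830-64023318 (1489 bp), was covered over 1210, 1467 and 1156 bp in shFto and 1294, 1352 and 1146 bp in shNC libraries, and the groups overlapped. Smad5, the third of the list with a start in a broad region, had 139, 146 and 124 CPM against 119, 121 and 113 CPM and did not pass the test (adjusted p = 0.052, and 0.0086 without shFto replicate 3).

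Smad7 and Smad2 stood near broad regions without having their starts in them. A 1050 bp region between genes, 23928 bp from the Smad7 start, was covered over 1016, 989 and 948 bp in shFto and 845, 946 and 828 bp in shNC libraries. Smad7 had 24.9, 23.5 and 33.2 CPM in shFto cells, against 13.7, 15.0 and 11.2 CPM in shNC cells, and rose by 1.03 ± 0.15 on the log2 scale (SE, adjusted p = 3.8e-05). Both measures were higher in every shFto library than in every shNC library. For the region the closest libraries had 948 and 946 bp, and it was named with its values known. A distance says nothing of which gene a region acts on. Smad2, whose start lay 22 bp outside a 1363 bp region, rose by 0.29 on the log2 scale (adjusted p = 0.020). Of the 12 tested ID and SMAD genes, wherever they start, 8 rose and 1 fell.

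Of 16 pigment genes, 2 started in broad regions and 11 in narrower ones, and of 20 melanocyte regulators 2 and 8. Of all tested genes, 10.7% started in a broad region. Slc24a4, an exchanger of sodium for calcium and potassium that has been linked to human pigmentation, had the largest rise of the set by the naming rule. It had 20.7, 17.2 and 25.8 CPM in shFto cells, against 3.34, 3.95 and 4.07 CPM in shNC cells, and rose by 2.49 ± 0.18 on the log2 scale (SE, adjusted p = 5.3e-09). Its region, chr12:102128527-102129582, was covered over 957, 997 and 904 bp in shFto and 891, 822 and 628 bp in shNC libraries, so RNA and covered length were both higher in all 3 shFto libraries. Myo5a, the myosin that carries melanosomes, had 718, 726 and 628 CPM in shFto cells, against 467, 540 and 430 CPM in shNC cells, and rose by 0.53 ± 0.09 (SE, adjusted p = 0.00028). Both pigment genes at broad regions rose, and so did 13 of the 16 pigment genes in all. The melanocyte marker sum given above was higher in shFto libraries too, and its part in these values was not tested. Of the regulators, Nfib rose by 0.34 (adjusted p = 0.0091), and Bcl2 had 29.9, 33.1 and 25.7 CPM against 24.3, 24.7 and 27.0 CPM. A broad region lay 28257 bp from Sox10, whose RNA had a log2 change of -0.24 (adjusted p = 0.053), and another inside Rab38, which rose by 0.24 (adjusted p = 0.043).

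The remaining large rises were genes of varied function. Thsd7a, a thrombospondin-domain protein, rose by 1.06 ± 0.18 on the log2 scale (SE, adjusted p = 0.00016). Ugp2, which makes UDP-glucose, had 246, 297 and 193 CPM in shFto cells, against 117, 125 and 135 CPM in shNC cells, and rose by 0.96 ± 0.11 (SE, adjusted p = 4.4e-06). Lpp, a focal adhesion protein, rose by 0.91, Dpy19l1, a mannosyltransferase, by 0.89 and Klhl23 by 0.87, with adjusted p of 2.7e-05, 2.5e-07 and 0.00026. The immediate early factor Egr1 had 5.91, 5.06 and 8.76 CPM in shFto cells, against 2.05, 1.51 and 2.46 CPM in shNC cells, and rose by 1.74 ± 0.28 (SE, adjusted p = 0.00010).

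Histone genes were among the largest falls at 10 CPM or more. Replication-dependent histone RNAs mostly lack a poly(A) tail and were counted here from total RNA, and near-identical copies can share reads, so single histone genes are uncertain. Hist1h1d had 8.68, 6.89 and 8.76 CPM in shFto cells, against 18.6, 20.0 and 14.4 CPM in shNC cells, and fell by 1.11 ± 0.16 on the log2 scale (SE, adjusted p = 4.1e-05), while its region was longer. H2afx, the variant phosphorylated at DNA breaks, had 47.3, 42.9 and 55.4 CPM in shFto cells, against 105, 109 and 99.4 CPM in shNC cells, and fell by 1.10 ± 0.09 (SE, adjusted p = 6.8e-08). Its start was placed by either end of the gene, since no strand was at hand. Hist1h1c fell by 0.90 (adjusted p = 1.9e-05). Of 4 histone list genes at broad regions 3 fell, and of the 14 tested anywhere 13 fell.

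Other falls included genes of DNA repair, matrix and protein turnover. Alkbh2, a DNA repair enzyme of the same dioxygenase family as FTO, had 9.15, 7.76 and 7.29 CPM in shFto cells, against 20.3, 14.3 and 20.0 CPM in shNC cells, and fell by 1.16 ± 0.17 (SE, adjusted p = 3.2e-05). Prss23, a secreted serine protease, had 6.65, 7.93 and 7.55 CPM in shFto cells against 15.9, 13.9 and 18.2 CPM in shNC cells and fell by 1.12 ± 0.16 (SE, adjusted p = 3.1e-05). Peaks covered 971, 1027 and 1059 bp of its region in shFto and 1230, 1154 and 1151 bp in shNC libraries, so both measures were lower in all 3 shFto libraries. The collagen genes Col5a1 and Col27a1 fell by 1.06 and 0.98 (adjusted p of 5.6e-07 and 0.00010). The fibroblast marker sum given above was lower in shFto libraries too, and its part in the collagen values was not tested. Zfp395 fell by 0.93 (adjusted p = 0.00025), with its region also shorter in every shFto library. Ube2j2, a ubiquitin-conjugating enzyme, had 8.04, 7.85 and 18.8 CPM in shFto cells, against 26.0, 19.7 and 24.9 CPM in shNC cells. It fell by 0.99 ± 0.23 (SE, adjusted p = 0.0028), by 1.56 without shFto replicate 3, and did not pass with DESeq2 (adjusted p = 0.059). Larger falls, of 5 genes, lay below 10 CPM, and the one of these with the highest mean CPM was named after its values were seen. Pknox2, a homeobox factor, had 1.17, 1.22 and 0.709 CPM in shFto cells, against 10.2, 6.74 and 6.74 CPM in shNC cells, and fell by 2.95 ± 0.29 (SE, adjusted p = 5.6e-07).

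**Figure D5:**
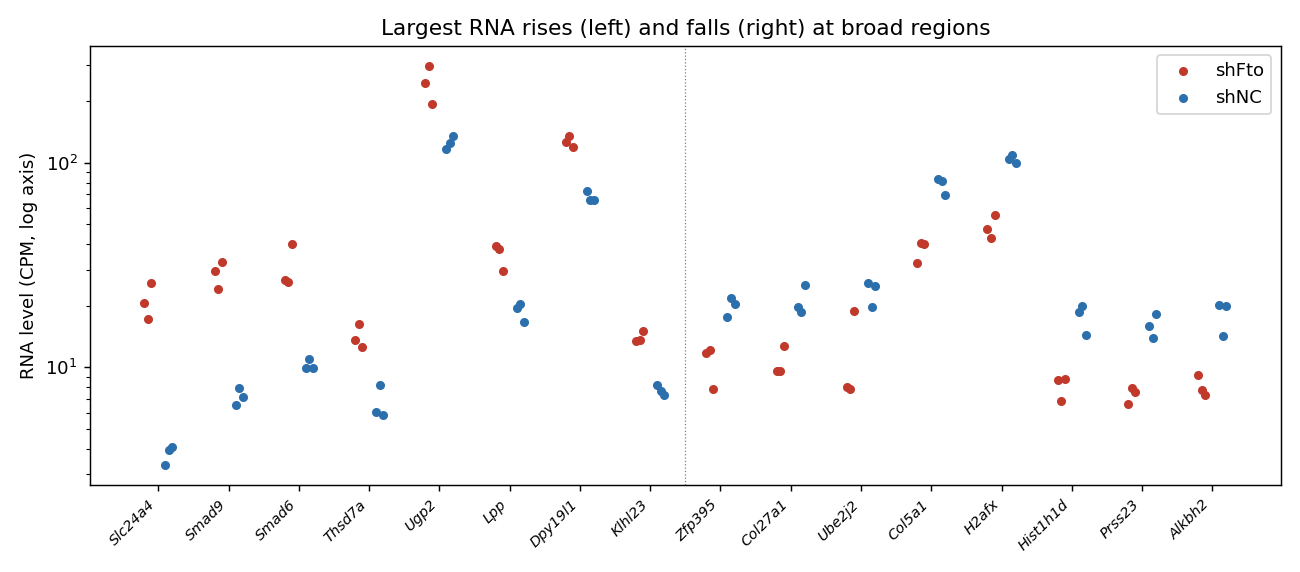
RNA level (CPM, log axis) in each library for the 8 largest rises, left of the dotted line, and the 8 largest falls, right of it, among genes with a start in a broad region, with shFto points left of shNC points. Groups do not overlap for any of the 16 genes, as the choice of genes required, and in Ube2j2 1 shFto library lies close to the shNC libraries.

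Stress and oxygen sensing genes gave a mixed picture. Egln1, the prolyl hydroxylase that marks HIF-1α for degradation, had 83.8, 105 and 103 CPM in shFto cells, against 160, 188 and 178 CPM in shNC cells, and fell by 0.85 ± 0.09 on the log2 scale (SE, adjusted p = 1.7e-06). P4ha1, a collagen prolyl hydroxylase, rose by 0.30 (adjusted p = 0.039), a call lost without shFto replicate 1 or 2 or shNC replicate 1 or 2 (adjusted p 0.084 to 0.23). The third hypoxia list gene at a broad region, Kdm3a, did not pass. Of 6 heat shock genes at broad regions 1 passed. Hspd1, the mitochondrial chaperonin, which shares its promoter with Hspe1, had 1253, 1385 and 1110 CPM in shFto cells, against 1023, 954 and 997 CPM in shNC cells, and rose by 0.33 ± 0.09 (SE, adjusted p = 0.0079). Peaks covered 947, 983 and 984 bp of its region in shFto and 1015, 996 and 1012 bp in shNC libraries. The region was thus shorter in every shFto library while the RNA was higher. Mdm2, the ubiquitin ligase of p53 and itself a p53 target, had 178, 177 and 168 CPM against 133, 135 and 124 CPM and rose by 0.41 ± 0.08 (SE, adjusted p = 0.00044). Zmat3, the other p53 target at a broad region, had an adjusted p of 0.089, and passed without shFto replicate 3 (0.018) or shNC replicate 1 (0.046).

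Genes of RNA handling, chromatin and translation also started in broad regions, and few of them changed. Of 7 splicing factors at broad regions, Srsf2 alone passed, with 334, 358 and 414 CPM in shFto cells against 520, 482 and 523 CPM in shNC cells, a fall of 0.46 ± 0.09 on the log2 scale (SE, adjusted p = 0.00054). Of 3 m6A factors, Rbm15, a subunit that guides the methyltransferase, fell by 0.28 (adjusted p = 0.014). That call was lost without shFto replicate 1 or 2 or shNC replicate 1 or 2 (adjusted p 0.053 to 0.084). Wtap and the demethylase Alkbh5 did not pass. The chromatin regulators Eed, Brd2, Ep300 and Smarca4 did not pass. Rpl10a, the gene of a ribosomal protein, fell by 0.34 (adjusted p = 0.0062). Processed copies of ribosomal genes can share their reads. Of the 50 ribosomal protein genes of the list, wherever they start, 32 fell.

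Single genes of other lists also passed. Of 4 NF-kB genes at broad regions (13 in the list), Nfkb1 fell by 0.26 (adjusted p = 0.029), a call lost without shFto replicate 1 or 2 or shNC replicate 2 or 3 (adjusted p 0.069 to 0.11). Of 4 clock genes (18 in the list), Bhlhe40 rose by 0.28 (adjusted p = 0.011, and 0.055 without shNC replicate 1). Mafg, the 1 AP-1 list gene, fell by 0.24 (adjusted p = 0.030), a call lost without shFto replicate 1 or 2 or shNC replicate 1 (adjusted p 0.073 to 0.19). Its region was covered over 1395, 1425 and 1387 bp in shFto and 1362, 1276 and 1192 bp in shNC libraries. It was longer in every shFto library while the RNA was lower. Dusp1, Cebpg, Pfkfb3, Cdk6 and the MYC network genes Mnt and Mxd3 did not pass. No Hox gene, interferon or class I gene, sterol synthesis gene or small nucleolar RNA host of the lists, and no marker of T cells, macrophages, fibroblasts, endothelium or epithelium, started in a broad region.

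Genes at shared promoters changed about as often as other genes. Of the 182 genes in 91 divergent pairs, 33.0% passed, against 32.8% of all tested genes. Of the 91 divergent pairs with both genes tested, both rose in 3, both fell in 2 and 1 rose while the other fell in 2. A single member of the pair passed in 46 and neither in 38. Atp6v1a, a proton pump subunit, and Naa50, an acetyltransferase, whose starts lay 532 bp apart, rose by 0.25 and 0.63 on the log2 scale. Zfp661 and Mrps5, a mitochondrial ribosomal protein gene, fell by 0.77 and 0.57. Atp5j fell by 0.24 and its neighbour Gabpa, an ETS factor, rose by 0.28, with 148 bp between the starts. These pairs were named after their values were seen.

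Broad regions away from starts were set beside the nearest coding gene. Of the 467, 352 had a coding start within 50 kb, giving 289 tested genes, of which 57 (19.7%) were higher, against 15.9% of all tested genes, and 72 (24.9%) lower, against 16.9%. Called changes of 2-fold or more numbered 12 (4.15%), against 3.25%. The nearest gene need not be the one a region acts on. Over all 1614 broad regions, with or without a start, 69 coding genes were nearest to more than 1.

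The m6A peak lists came from 1 antibody library each of shFto cells, of control cells treated with 5 µM Dac51 (an FTO inhibitor), and of shNC cells. A treatment time of 48 h and 5 µg/mL puromycin are given for all 3. With 1 library each, the lists carry no replicate check. Of the 1257 tested genes at broad regions, 61.6%, 58.4% and 52.9% had an m6A peak in the shFto, Dac51 and shNC list, against 53.6%, 49.9% and 44.2% of all tested genes. The order of the 3 lists was the same in both sets of genes. The median CPM was higher at broad regions, as given above, and its part in this was not tested.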

How the data were processed

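RNA-seq and ATAC-seq of shFto and shNC B16-OVA cells were used, 3 libraries of each kind per group, with groups taken from the labels. The deposited RNA-seq table holds raw counts per gene symbol, per the file headers. Per the labels' protocols, total RNA was made into stranded libraries. The tool that counted reads and its strand setting are not given in the sources used here. Each deposited ATAC-seq list belongs to a single library and carries the authors' peak caller values, namely a fold enrichment ratio, −log10 of p and of q, and a score per peak. The m6A lists were used for gene strand and for the presence of a peak. The submitters' processing notes name MACS2 2.1.3, Picard, deepTools, STAR 2.7.0f, Bowtie2 2.3.5, Trim Galore 0.6.0 and build mm10, with no role for any of them.

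Peaks were merged over the 6 lists with an overlap of 1 bp, and regions under 1000 bp, off the autosomes or without a peak in all 6 lists were left out (32 otherwise qualifying regions lay on chromosome X or Y, and 5 autosomal ones lacked a peak in some library). A gene belonged to a region that held its start. Of the 1429 genes so placed, 1198 starts came from the RefSeq GRCm38.p6 promoter table, 130 from the gene end with the strand of the m6A lists, and 101 from either gene end. RefSeq held 22572 of the 24421 symbols that have RNA counts, and 98.6% of the tested genes. Peak positions and sequences share the build.

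The RNA counts went through edgeR's quasi-likelihood test (edgeR 4.0.16, R 4.3.3) after TMM scaling and the default filter on low counts, which left 11718 genes. P-values were adjusted by Benjamini-Hochberg over all of them, and an adjusted p under 0.05 counted as a call. Standard errors of log2 fold changes were taken from the test's F statistic. The common biological coefficient of variation between libraries was 0.0906. Single values per library were compared by exact two-sided permutation. DESeq2 1.42.0, library totals, no expression filter, a replicate block, other widths, overlaps and q thresholds, and leaving out each library were tried. Python 3.11.15, pandas 2.3.3, NumPy 2.4.6, SciPy 1.17.1 and Matplotlib 3.10.9 were used. Both steps were tested on simulated data.

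Named genes were Fto, those at the 8 widest and the 8 strongest regions, the 8 largest rises and the 8 largest falls (called, no overlap between groups, mean level of 10 CPM or more, no predicted or Rik symbols), and up to 3 of each gene list by smallest adjusted p. A few items that meet this rule are left out of the text. Members and lists were chosen with earlier results of these data known. Levels per transcript length were planned and could not be had, as transcript lengths were not used here. The printed promoters cover only those in the RefSeq table.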

Additional observations from a re-analysis of the deposited data

How the results depend on the processing

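The number of broad regions was 5904 with a minimum width of 750 bp and 78 with 1500 bp, and 1463 to 1542 when 1 ATAC-seq library was left out. Genes at broad regions that were higher and lower in shFto cells numbered 672 and 619 at 750 bp, and 12 and 11 at 1500 bp, where the median log2 fold change was 0.051. That median was -0.0045 with the nearest start within 50 kb and 0.071 with library totals. Leaving out 1 library gave 140 to 269 higher genes, 145 to 266 lower genes, a median of 0.0067 to 0.025, 2468 to 4423 called genes over the table, and a difference in length under peaks of -3.67 to -0.82 percentage points. The fewest calls came without RNA-seq shFto replicate 1. Other widths change the regions, and fewer libraries the samples, by construction; the cause of the other shifts was not tested.

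Same-numbered RNA libraries showed no shared deviation from their group means (correlations of 0.014, 0.037 and -0.017). With 3 libraries per group this cannot decide whether the numbers mark shared cultures, and the main test used no pairing. With the replicate block, 222 genes at broad regions were higher, 226 lower and 3736 called in all, and the median was 0.01. Under the block P4ha1 had an adjusted p of 0.058, and Smad5 and Zmat3 passed (0.047 and 0.037). DESeq2 gave 219, 225 and 3740. With only genes of known strand, an alternative chosen after seeing the data, 215 of 1179 genes were higher and 212 lower.

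Of the named genes, 6 values changed sign, each with no call in the tests as reported. With library totals Hnrnpk had 0.0087 and B3galnt2 0.044. Leaving out 1 library gave -0.058 to 0.056 for B3galnt2, -0.0018 to 0.11 for Hnrnpa2b1 and -0.0059 to 0.17 for Ppp6r2. The calls of Mafg and Nfkb1 were also lost with library totals (adjusted p 0.090 and 0.078). Calls were gained too: Mb21d2, Smad5, Zmat3 and Pfkfb3 with library totals (0.039, 0.018, 0.042 and 0.045), Zfp384, Smad5 and Zmat3 without the filter (0.021, 0.044 and 0.038), and Zfp384, Bcl2, Dnaja1, Smarca4 and Hnrnpa1 without shFto replicate 3 (0.0042, 0.037, 0.0497, 0.024 and 0.044). Peak lists limit the precision for single regions, since their depth is unknown.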
